A study of Homo sapiens with 12 samples.

Results

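The response of RKO cells to Nutlin-3a was taken as the difference between the RKO arrays after Nutlin-3a and the untreated RKO arrays, 4 of the 12 arrays in the series, across every gene whose probe set carries a single gene symbol (14118 genes). RKO is a human colorectal carcinoma line, labelled here as wild type for p53. One group of 2 arrays comes from RKO cells given Nutlin-3a at 10 µM for 8 h and the other group of 2 arrays from RKO cells left untreated. The remaining 8 arrays hold the same pair of groups for HCT116 and SW48, colorectal cancer lines also labelled p53 wild type, and were used for the shared estimate of spread and for comparison. The labels call the samples duplicates and do not say that they came from separate cultures, so the p-values measure only the spread between these arrays, which may be technical. Each group is a single cell line, the growth text names only HCT116, the extraction text speaks of thyroids, and the labels give Cy3 in one field and biotin in another. The series concerns PINCR, a long noncoding RNA induced by p53, listed on this array under the RefSeq symbol PURPL.

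p53 is a transcription factor that is held at a low level by MDM2, a ubiquitin ligase which binds it and marks it for degradation. Nutlin-3a occupies the p53-binding pocket of MDM2, so that p53 builds up without DNA damage. p53 binds paired copies of a short motif near its target genes and raises genes of cell cycle arrest, apoptosis, DNA repair, metabolism and its own feedback, while many genes of cell division fall indirectly through p21 (the product of CDKN1A) and the repressor complexes of the RB family. RKO is known as a poorly differentiated, mismatch-repair-deficient line used often in p53 work because its p53 is intact.

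All values below are the deposited expression values, taken as log2, and differences are Nutlin-3a minus untreated on that scale, given with their standard error from the limma fit (n = 2 arrays per group). A gene was called when its Benjamini-Hochberg adjusted p over all 14118 genes was under 0.05. The RKO arrays of a group correlated at r = 0.9967 (untreated) and 0.9964 (Nutlin-3a) over all probe sets, against 0.9954 to 0.9959 between the groups, and replicate arrays differed by a median of 0.0884 (untreated) and 0.0859 (Nutlin-3a), sign ignored. Of the 11 markers of colorectal epithelium 9 were measured. EPCAM, an epithelial adhesion molecule, lay between 5.64 and 6.43 on the RKO arrays and between 10.99 and 11.13 on all arrays of the other lines, and keratin 19 (KRT19) lay between 5.59 and 6.42 in RKO and at 8.70 or above elsewhere. KRT8, KRT18 and KRT20 were also lower in RKO than on any array of the other lines. Their RKO ranges were 6.26 to 6.64, 7.13 to 7.32 and 4.17 to 4.27. The HCT116 ranges were 7.06 to 7.4, 8.1 to 8.24 and 5.16 to 5.29, and those of SW48 7.04 to 7.18, 7.4 to 7.51 and 4.34 to 4.55. The remaining markers lay at about the HCT116 level. CDX2 lay between 7.36 and 7.54 in RKO against 7.34 to 7.48, but at 9.5 to 9.63 in SW48. CDX1 lay between 5.62 and 5.94 against 5.84 to 5.88 in HCT116. VIL1 lay between 5.57 and 5.88 against 5.68 to 5.86, and GPA33 between 5.21 and 5.49 against 5.32 to 5.53. The 40 genes at least 3 log2 units higher on every HCT116 and SW48 array than in RKO deviated from their own RKO medians by a median of -0.015 to 0.013 on the 4 RKO arrays. Of the 9 thyroid, 4 immune, 3 fibroblast and 5 endothelial markers measured limma called 0, and 1, 1, 2 and 0 had an unadjusted p under 0.05. The summed value of the thyroid markers was 42.2 to 43.1 in untreated and 43.2 to 43.8 in Nutlin-3a arrays, and that of the fibroblast markers 12.4 to 12.7 and 13.1 to 13.2; their part in the results was not tested. In bulk samples, fewer cells of a kind and less RNA per cell cannot be told apart.

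Nutlin-3a changed 285 genes in RKO cells (2.02% of those tested): 173 rose (1.23%) and 112 fell (0.793%). The rises were the larger changes. Of the genes that rose 22 at least doubled, with a median log2 difference of 0.517 among called rises, whereas a single gene that fell, the microRNA gene MIRLET7F1, dropped by a factor of at least 2, and the median size of called falls was 0.37. Both Nutlin-3a arrays lay above both untreated arrays for all 173 and below them for all 112. That separation alone is common in these data: it held for 20.6% of all genes in the upward and 25.7% in the downward direction. The median difference over all genes was -0.0068. With the genes in 4 equal bins of untreated level, from the dimmest to the brightest, the numbers called were 15, 33, 115 and 122, with 60 rises and 62 falls in the brightest bin and 12 rises and 3 falls in the dimmest. At an unadjusted p under 0.05, 2392 genes passed. The count of calls depended on every RKO array: it was 112 and 115 without either untreated RKO array and 120 and 97 without either Nutlin-3a array, and 163 without either untreated HCT116 array. Of the 285 calls 67 remained when each RKO array was left out in turn, 58 rises and 9 falls.

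**Figure D1:**
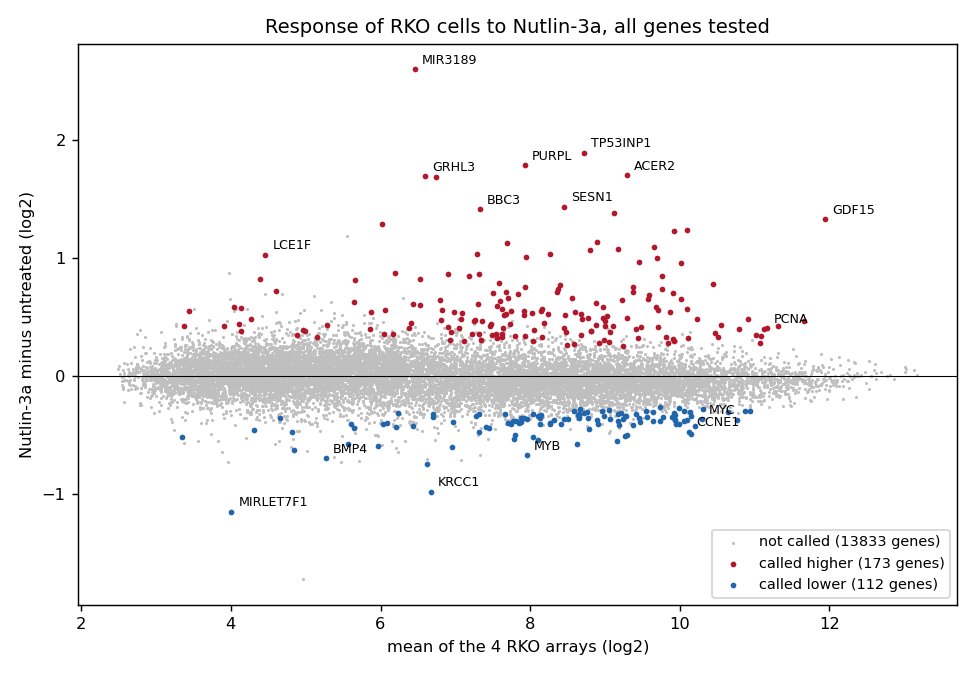
Each point is 1 of 14118 genes, with the mean of the 4 RKO arrays (log2) on the horizontal axis and the Nutlin-3a minus untreated difference (log2) on the vertical axis; called rises are red and called falls blue. The rises reach 2.60 (MIR3189), while the falls stay within 1.15 of 0 among called genes.

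The feedback regulators of p53, genes whose products act back on p53 or its pathway, were among the strongest responders. TP53INP1, which encodes a nuclear protein that promotes p53 phosphorylation and autophagy, stood at 7.68 and 7.87 in the untreated arrays and at 9.67 and 9.67 after Nutlin-3a. The treated arrays were alike and well above both untreated ones, a 3.72-fold rise (log2 difference 1.90 ± 0.077, adjusted p = 5.42e-06). TRIAP1, a small inhibitor of apoptosis induced by p53, went from 9.05 and 8.90 to 9.92 and 9.97 (0.97 ± 0.083). The stress kinase gene PLK3 rose by 0.66 ± 0.1 and the cyclin G1 gene CCNG1, whose product recruits a phosphatase to MDM2, by 0.34 ± 0.059. Thus 4 of 6 measured feedback genes rose and 0 fell, where 1.23% of all genes tested rose. The median was 0.502, against -0.0068 over all genes. This list and those below were chosen with earlier results of these data known. PLK2 and MDM4 did not pass, at 0.062 ± 0.093 and 0.049 ± 0.081. Only TP53INP1 and TRIAP1 kept their calls in every fit without 1 RKO array; the adjusted p of PLK3 reached 0.081 and that of CCNG1 0.113, and the count was 2 without either untreated array or the first Nutlin-3a array. MDM2 itself, PPM1D, ZMAT3 and PHLDA3 were not analysed here.

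Of the arrest genes 4 of 12 were measured, and CDKN1A, BTG2 and GADD45A were not analysed here. E2F7, an atypical E2F that represses the E2F program and is itself induced by p53, was 10.07 and 10.03 in untreated and 10.83 and 10.83 in treated cells. The arrays of each group nearly coincided, and the rise was 1.72-fold (0.78 ± 0.084, adjusted p = 0.00136). The other members, CCNK, FOXO3 and SFN (14-3-3 sigma), had differences of 0.13, 0.07 and 0.058 and did not pass.

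Of the 22 apoptosis genes listed, 11 were measured. Most of those rose: 8 were called higher and 0 lower, with a median of 0.648, where 1.23% of all genes tested rose. They span the route from the mitochondrial membrane to the caspases. BBC3, which encodes the BH3-only protein PUMA, rose from 6.58 and 6.66 to 8.15 and 7.91. This is a 2.67-fold rise with no overlap between the groups (1.42 ± 0.098, adjusted p = 7.79e-05). PMAIP1, the BH3-only protein NOXA, went from 8.88 and 8.91 to 9.58 and 9.52 (0.65 ± 0.067), and BAX, the pore-forming effector that such proteins release, from 9.37 and 9.40 to 10.03 and 9.92 (0.59 ± 0.072). BAK1, the second effector and in no list here, was called as well at 0.37 ± 0.061, but lost its call without any 1 of the 4 RKO arrays (adjusted p up to 0.106). Downstream, APAF1, the scaffold of the apoptosome, rose by 0.77 ± 0.069. PIDD1, the scaffold of the PIDDosome that activates caspase-2, stood at 8.32 and 8.32 and then at 9.46 and 9.46. Its arrays agreed closely within each group and the rise was 2.21-fold (adjusted p = 0.000273). TP53I3, a quinone oxidoreductase linked to oxidative stress in apoptosis, rose by 1.38 ± 0.094, the IKK-interacting protein gene IKBIP by 1.07 ± 0.082, and the apoptosis-enhancing nuclease gene AEN by 0.47 ± 0.067. The differences of TP53AIP1, BCL2L1 and BID were 0.10, 0.054 and 0.031 and did not pass. Of the 8, AEN alone lost its call when 1 array was left out; its adjusted p was 0.0576 at its highest, without the second untreated or the second Nutlin-3a RKO array.

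The metabolic and autophagy targets held some of the largest and most repeatable rises. Of 19 measured genes 8 were called higher and 0 lower (median 0.218), where 1.23% of all genes tested rose. ACER2, an alkaline ceramidase of the Golgi that yields sphingosine, read 8.43 and 8.44 in untreated and 10.15 and 10.14 in treated cells. Replicate arrays differed by far less than the groups, and the rise was 3.27-fold (1.71 ± 0.073, adjusted p = 5.42e-06). The sestrins, stress-induced inhibitors of the growth kinase complex mTORC1, rose together. SESN1 went from 7.78 and 7.70 to 9.18 and 9.17 (1.44 ± 0.07) and SESN2 from 9.52 and 9.45 to 10.75 and 10.70 (1.24 ± 0.078). DDIT4 (REDD1), which restrains mTORC1 by way of the TSC complex, rose from 7.18 and 7.06 to 8.16 and 8.34 (1.13 ± 0.079). TIGAR, a phosphatase that lowers glycolytic flux and favours NADPH production, rose 2.35-fold, from 9.33 and 9.30 to 10.60 and 10.49 (1.23 ± 0.078). The lysosomal membrane protein gene DRAM1 (0.76 ± 0.064), the lipid hydrolase gene ABHD4 (0.74 ± 0.074) and the hydrolase gene CMBL (0.62 ± 0.062) completed the called members. All 8 were called whichever single array was left out. HSD17B7, at 0.52 ± 0.12 with an adjusted p of 0.0692, GPX1 (0.22 ± 0.073) and SPATA18 (0.072 ± 0.1) were among those that did not pass.

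Of the DNA repair targets 5 of 7 measured genes rose and 0 fell (median 0.435), where 1.23% of all genes tested rose. RRM2B, the p53-inducible subunit of ribonucleotide reductase that supplies nucleotides for repair, rose from 9.55 and 9.52 to 10.44 and 10.54, 1.94-fold (0.96 ± 0.083, adjusted p = 0.000283). RPS27L, a ribosomal-protein-like regulator of p53 and MDM2 turnover, went from 7.28 and 7.28 to 7.93 and 7.91, and the helicase gene ASCC3 from 9.59 and 9.60 to 10.12 and 10.16. In each case the arrays of a group nearly coincided (0.64 ± 0.069 and 0.55 ± 0.056). RAD51C, a recombination factor, rose by 0.44 ± 0.061, and PCNA, the sliding clamp of replication and repair and a direct p53 target, by 0.41 ± 0.071. The latter pair lost their calls without the second untreated array or either Nutlin-3a array (adjusted p up to 0.0548 and 0.107), leaving 3 calls. Their neighbours on the list, GTSE1 and POLK, had differences of -0.054 and -0.063.

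Genes for secreted and membrane proteins gave 7 rises and 0 falls among 21 measured (median 0.25), where 1.23% of all genes tested rose. GDF15, a stress cytokine of the TGF-beta family, was high before treatment, at 11.26 and 11.29, and reached 12.63 and 12.58. It rose 2.52-fold with no overlap (1.33 ± 0.095, adjusted p = 9.05e-05). SUSD6, a membrane protein gene known as a p53 target, went from 7.71 and 7.78 to 8.80 and 8.77 (1.04 ± 0.086). LIF, a cytokine of the interleukin-6 family, doubled from 7.44 and 7.42 to 8.48 and 8.41 (1.01 ± 0.074), and KITLG, the ligand of the KIT receptor, rose from 6.98 and 6.78 to 7.83 and 7.66 (0.87 ± 0.081). ANXA4 (0.49 ± 0.066), DUSP14 (0.48 ± 0.092) and TLR3 (0.45 ± 0.068), a sensor of double-stranded RNA, rose less. The calls of DUSP14 and TLR3 were lost without the second untreated or the second Nutlin-3a array, and that of DUSP14 also without the first Nutlin-3a array or any 1 HCT116 array (adjusted p up to 0.139 and 0.0833). IGFBP3, NOTCH1 and EPHA2, at 0.43, 0.36 and 0.33, did not pass. CSF1, the macrophage growth factor and in no list here, rose by 0.74 ± 0.084.

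**Figure D2:**
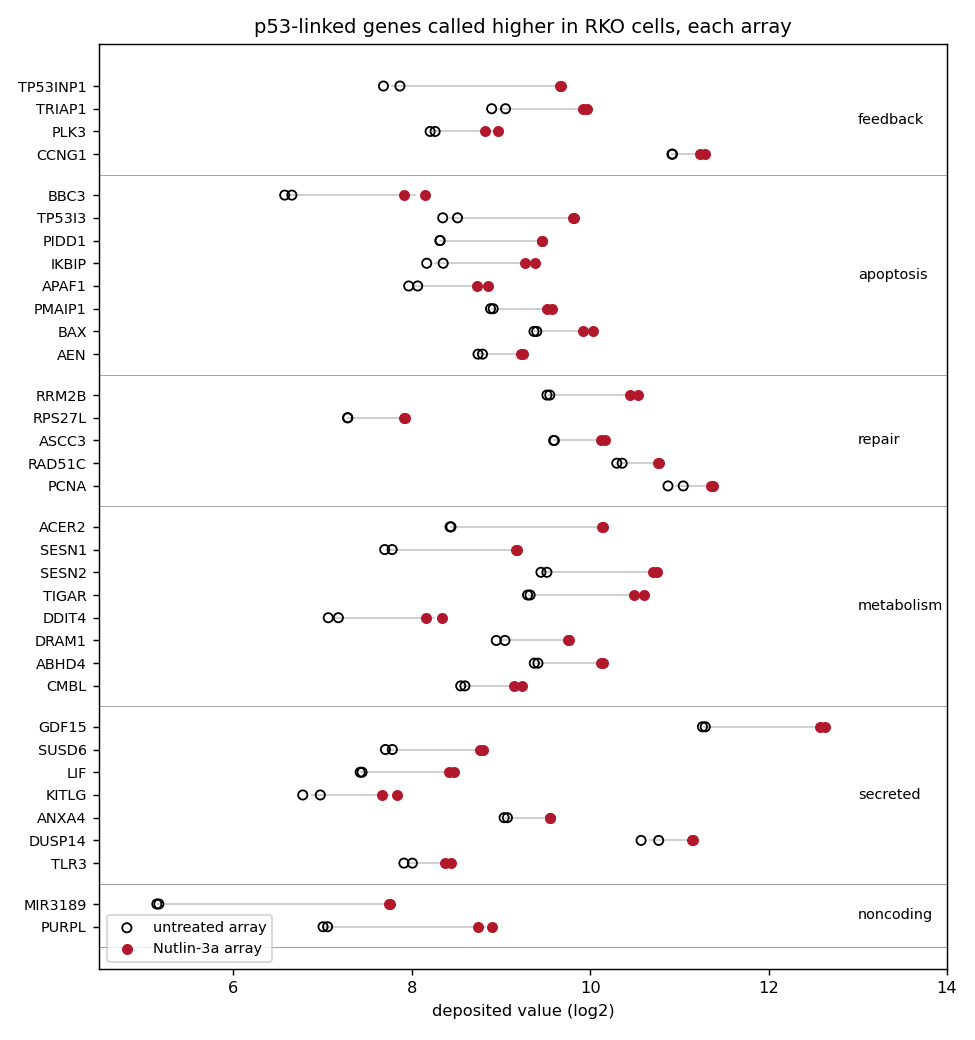
Deposited values (log2, horizontal axis) on each RKO array for the 34 called members of the p53-linked lists (E2F7 is not drawn), grouped by role, with open circles for the 2 untreated arrays, red points for the 2 Nutlin-3a arrays and a grey line joining the group means. In every row both red points lie to the right of both open circles, and the distances run from 0.34 (CCNG1) to 2.60 (MIR3189).

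Of 12 measured noncoding RNAs tied to p53, 2 rose and 0 fell (median 0.167), where 1.23% of all genes tested rose. PURPL, the long noncoding RNA that the series calls PINCR, stood at 7.06 and 7.01 in untreated cells and 8.90 and 8.74 after Nutlin-3a. It rose 3.46-fold without overlap (1.79 ± 0.14, adjusted p = 0.000139) and was called in every fit without 1 array. The probe set of MIR3189, a microRNA gene that lies inside GDF15 in RefSeq, read 5.14 and 5.17 and then 7.76 and 7.75, the largest rise of all genes tested (6.07-fold, 2.60 ± 0.12). Such a probe set covers a precursor's locus and can also read the host transcript, so it does not measure the mature microRNA. Of the 8 genes taken from the study, 4 were measured and 2 rose, PURPL and RRM2B; GPX1 and MATR3, which encodes the RNA-binding protein Matrin 3, had differences of 0.22 and -0.058 ± 0.053 and did not pass. The study chose these genes on related samples, so their count is not independent evidence of a direction.

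The promoter of PURPL is shown because it holds a p53 site that matches the consensus at every base. In the RefSeq window on GRCh38.p14, chr5:27472122-27472221, plus strand, the 20 capitals mark the site, a pair of 10-base copies with no spacer, which begins at position -127 from the start of transcription.
PURPL promoter: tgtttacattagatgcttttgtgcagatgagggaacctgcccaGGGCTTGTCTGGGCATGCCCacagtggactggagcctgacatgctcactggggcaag

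Promoter windows of 300 bases (250 before and 50 after the start) were available in RefSeq for 10568 of the genes tested, among them 141 that rose and 89 that fell. A strict p53 site (both cores intact, at most 2 mismatches in 20, spacer of at most 1 base) was found in 3 of the 141 (2.13%), in 0 of the 89 and in 27 of all 10568 (0.255%). A looser search (at most 3 mismatches, spacer up to 13) found 9 of 141 (6.38%), 2 of 89 (2.25%) and 415 of 10568 (3.93%). Both strands are covered, since the site reads alike on each, and a match is a description of letters rather than of binding. The strict matches among the rises were PURPL, AEN and DOCK8, a guanine nucleotide exchange factor of leukocytes that is returned to below. Looser matches included GRHL3, RPS27L, GDF15 and the ephrin gene EFNB1, which rose by 1.08 ± 0.069. The sites of 4 of these genes are shown for comparison with that of PURPL, with the 10-base copies in capitals. AEN is chr15:88621260-88621339 (plus strand, 2 mismatches, from -34). DOCK8 is chr9:214874-214903 (plus strand, 2 mismatches, from 14 after the start). RPS27L is chr15:63157498-63157577 (minus strand, 3 mismatches, from -69), and GRHL3 is chr1:24319107-24319176 (plus strand, 3 mismatches and a spacer of 7, from -224).
AEN promoter: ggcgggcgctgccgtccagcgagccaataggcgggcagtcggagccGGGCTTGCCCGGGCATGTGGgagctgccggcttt
DOCK8 site: ggtttGCGCTTGGCTGGGCATGTTCcgcgg
RPS27L promoter: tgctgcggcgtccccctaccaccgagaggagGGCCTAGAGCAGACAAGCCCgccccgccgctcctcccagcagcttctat
GRHL3 promoter: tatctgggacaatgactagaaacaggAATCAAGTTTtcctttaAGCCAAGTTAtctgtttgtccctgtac

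Several of the largest rises lay outside the classic p53 lists. GRHL3, a grainyhead transcription factor of epithelial barrier formation, rose from 5.75 and 5.76 to 7.28 and 7.62. The treated arrays differed by more than is usual here but stayed far above the untreated pair (3.24-fold, 1.70 ± 0.13, adjusted p = 0.000146). It was the sole riser among 32 grainyhead, keratin and barrier genes measured. Their median was -0.089, with GRHL2 at 0.47 (adjusted p = 0.248), and the keratin gene KRT80 (-0.50 ± 0.09) and the keratin-associated gene KRTAP2-3 (-0.59 ± 0.091) fell. DNAI3, an axonemal dynein intermediate chain gene, went from 6.06 and 5.73 to 7.48 and 7.69 (1.69 ± 0.12). LCE1F, one of the late cornified envelope genes of the skin barrier, was dim, with an untreated mean of 3.95, and rose to 5.11 and 4.85 (1.03 ± 0.091). Of the 16 late cornified envelope genes measured 2 were called, LCE1F and LCE1B (0.55 ± 0.1), and the family median was 0.07. Among further rises, chosen after their values were seen, were the ubiquitin ligase genes RNF19B (1.00 ± 0.059) and FBXO22 (0.70 ± 0.056, with 0.039 ± 0.1 at a second, dimmer probe set), the zinc finger gene ZNF79 (1.10 ± 0.075), the iron-sulfur scaffold gene ISCU (0.75 ± 0.068), the unconventional cyclin gene CCNG2 (0.87 ± 0.058), YPEL3 (0.85 ± 0.091), and STAT3 (0.42 ± 0.054). ZNF563 had the widest spread among the large rises, 5.47 and 5.29 against 6.97 and 6.37 (1.29 ± 0.23, adjusted p = 0.0242), and lost its call without either untreated array or the first Nutlin-3a array (up to 0.114). The calls of KRT80, KRTAP2-3 and LCE1B were also lost without 3 or 4 of the RKO arrays (up to 0.151, 0.0845 and 0.137).

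Of all genes tested 0.793% fell and 1.23% rose. Of 36 measured DNA replication and E2F genes, 7 fell, 2 rose and the others did not pass. Differences below 0 numbered 30, against 7353 of all 14118 genes, and the median was -0.186. The genes that rose were E2F7 and PCNA, described above. CCNE1, the cyclin E1 that drives entry into S phase with CDK2, stood at 10.37 and 10.34 and fell to 9.88 and 9.89. The arrays of each group nearly coincided and the fall was 1.39-fold (-0.47 ± 0.056, adjusted p = 0.00261). CCNE2 (-0.39 ± 0.079), the helicase loading factor MCM10 (-0.37 ± 0.06), the replicative helicase subunit MCM3 (-0.29 ± 0.055), the activator E2F2 (-0.35 ± 0.073), the atypical E2F8 (-0.36 ± 0.075) and the zinc finger gene ZNF367 (-0.33 ± 0.061) fell as well. The other MCM helicase subunits measured, MCM2, MCM4, MCM5, MCM6 and MCM7, had differences from -0.22 to -0.18 and did not pass. CCNE1 was the only one of the 7 called without each of the RKO arrays in turn; the count of falls was 1 or 2 without any 1 RKO array and 3 or 4 without any 1 array of another line.

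The remaining cell cycle and repair lists showed fewer calls. Over all 14118 genes tested, 7353 lay below 0 and 112 fell (0.793%). Of 42 G2 and mitosis genes, 31 lay below 0 with a median of -0.071, and a single gene fell, CDC25A, the phosphatase that activates CDK2 at the G1/S boundary, from 10.28 and 10.20 to 9.86 and 9.87 (-0.38 ± 0.074). Its call was lost without any 1 RKO array (adjusted p up to 0.173). All 6 mismatch repair genes measured lay below 0, with a median of -0.217, and 2 fell. MSH6, a mismatch recognition factor, went from 9.03 and 8.99 to 8.61 and 8.51 (-0.45 ± 0.061, adjusted p = 0.0053; 0.0523 without the second Nutlin-3a array), and the exonuclease gene EXO1 fell as well (-0.30 ± 0.06). EXO1 lost its call without any 1 of the 12 arrays. No homologous recombination or Fanconi gene among 11 was called in RKO (median -0.095) by limma with Benjamini-Hochberg adjustment, and 4 had an unadjusted p under 0.05. LMNB1, the nuclear lamin B1 gene, fell from 9.26 and 9.25 to 8.90 and 8.89 (-0.36 ± 0.059) and LMNA rose by 0.35 ± 0.066; both calls were lost without any 1 RKO array (up to 0.0981 and 0.146).

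E2F motifs were looked for in the same promoter windows, on both strands, in the forms TTCCCGC, then TTGGCGC, and also TTCGCGC. Any of the 3 was present in 21 of the 89 promoters of genes that fell (23.6%), in 20 of 141 that rose (14.2%) and in 1579 of all 10568 (14.9%). TTCCCGC alone was in 16.9% of the promoters of genes that fell, 8.51% of those that rose and 8.89% of all. TTGGCGC was in 4.49%, 4.26% and 4.19%, about the same in each, and TTCGCGC in 5.62%, 2.13% and 3.04%. The E-box CACGTG, the motif bound by MYC and related factors, was in 14 of 89 (15.7%), 10 of 141 (7.09%) and 9.01% of all, and TTTGAA, the core of the CHR element of mitotic genes, in 8.99%, 7.09% and 11.8%. The promoters of CDC25A and ZNF367 are shown as examples with capitals on the E2F motifs. In CDC25A (chr3:48188418-48188497, minus strand) copies of TTGGCGC on opposite strands overlap, the first from -43. In ZNF367 (chr9:96418371-96418450, minus strand) a TTCGCGC and a TTCCCGC, both on the opposite strand, begin at -35 and -21.
CDC25A promoter: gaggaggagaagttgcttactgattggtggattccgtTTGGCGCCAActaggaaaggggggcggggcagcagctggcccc
ZNF367 promoter: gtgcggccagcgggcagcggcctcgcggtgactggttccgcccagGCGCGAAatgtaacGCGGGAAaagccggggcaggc

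**Figure D3:**
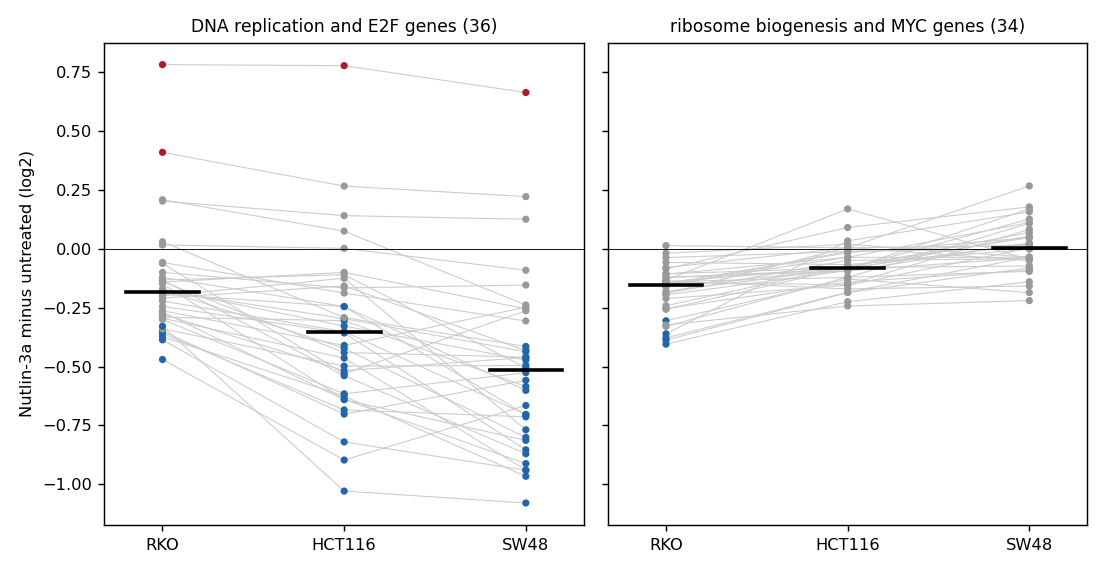
Nutlin-3a minus untreated (log2, vertical axis) for each measured gene of the replication and E2F list (36 genes, left) and the ribosome biogenesis and MYC list (34 genes, right) in the 3 lines; lines join a gene, red and blue points are called rises and falls, grey points are not called, and black bars are medians. The replication medians are -0.186 in RKO, -0.355 in HCT116 and -0.516 in SW48, and the ribosome medians -0.156, -0.081 and 0.001.

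Of all genes tested 0.793% fell. Of 34 measured genes of ribosome production and MYC, 5 fell, 0 rose and 29 did not pass. Differences below 0 numbered 33, against 7353 of all 14118 genes, and the median was -0.156. MYC, the growth-promoting transcription factor, fell from 10.53 and 10.42 to 10.07 and 10.15 (-0.36 ± 0.065, adjusted p = 0.0249). The other called members act in ribosome assembly or RNA modification: MRTO4, a factor of the large subunit, fell from 10.21 and 10.16 to 9.82 and 9.74 (-0.41 ± 0.064), as did the nucleolar protein gene NOP16 (-0.39 ± 0.074), the pseudouridine synthase gene PUS7 (-0.38 ± 0.059) and NOLC1 (-0.31 ± 0.065). Outside the list, and chosen after their values were seen, the assembly factor genes WDR3 (-0.38 ± 0.054), PWP2 (-0.32 ± 0.062) and PDCD11 (-0.26 ± 0.054) also fell; their calls too were lost without 3 or 4 of the RKO arrays (adjusted p up to 0.0609, 0.154 and 0.176). The difference of MYC was 0.033 ± 0.065 in HCT116 and 0.16 ± 0.065 in SW48, neither called; the test of RKO against the mean of those responses gave -0.46 ± 0.079 (adjusted p = 0.066) and did not pass. The calls on this list were fragile: at most 1 of the 5 was called in any fit without an RKO array.

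Among the other falls were growth factors and developmental regulators. MIRLET7F1, a let-7 microRNA gene, had the largest called fall, from 4.73 and 4.42 to 3.56 and 3.30. The groups did not overlap, on a dim probe set (2.22-fold lower, -1.15 ± 0.16, adjusted p = 0.0058). KRCC1, a lysine-rich coiled-coil protein gene, fell from 7.37 and 6.96 to 6.14 and 6.23 (-0.98 ± 0.13) and the ring finger gene LONRF1 from 7.08 and 6.91 to 6.32 and 6.18 (-0.74 ± 0.11). MYB, a transcription factor of proliferating progenitor cells, dropped from 8.24 and 8.35 to 7.65 and 7.60 (-0.67 ± 0.091). The ligand genes BMP4 and FGF9 fell by 0.70 and 0.60 on the log2 scale and were the only called members of 18 BMP, TGF-beta and FGF genes (median -0.03). BMP4 stood at 5.58 and 5.66 and then at 4.77 and 5.07, and FGF9 at 7.37 and 7.14 and then at 6.73 and 6.58. AXIN2, a feedback inhibitor and readout of Wnt signalling, went from 9.48 and 9.56 to 9.01 and 9.03 (-0.50 ± 0.067). Of 19 Wnt genes it and MYC fell, and the median was 0.001. Falls were also called for the vasoactive peptide gene UTS2 (-0.63 ± 0.12), TMEM158 (-0.58 ± 0.097), VSTM4 (-0.57 ± 0.07), FJX1 (-0.55 ± 0.11) and the antisense RNA gene FAM222A-AS1 (-0.54 ± 0.088). The second probe set of VSTM4, given below, had a difference above 0. Calls were lost without at least 1 RKO array for MIRLET7F1, LONRF1 and FGF9 (the first untreated or the second Nutlin-3a array, adjusted p up to 0.0552, 0.0844 and 0.0716), MYB (0.052), UTS2 (0.168), TMEM158 (0.103), FJX1 (0.14) and FAM222A-AS1 (0.11). RGPD2 (-1.72 ± 0.67) and TAPBP (-1.08 ± 0.29) had larger negative differences than most called genes, with wide spread, and did not pass (adjusted p = 0.234 and 0.0942).

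The microRNA loci are shown with their mature sequences, 5′ to 3′ from RefSeq, with the seed (bases 2 to 8, which pairs with target RNAs) in capitals, because the loci below are compared by seed. let-7f shares the seed GAGGUAG with let-7a, let-7d, let-7e, let-7g, let-7i and miR-98. The probe sets of their genes did not pass: MIRLET7A1 was at -0.17 and MIRLET7D at 0.0096, both beside MIRLET7F1 on chromosome 9, and MIR98 at -0.27. XPO5, the export receptor of microRNA precursors, fell (-0.30 ± 0.057), a call lost without any 1 RKO array (0.177).
let-7f-5p: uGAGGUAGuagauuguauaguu
let-7a-5p: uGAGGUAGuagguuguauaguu
let-7d-5p: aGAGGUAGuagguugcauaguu
miR-98-5p: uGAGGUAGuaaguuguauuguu

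Of the 611 microRNA genes measured 2 rose, MIR3189 and MIR449B, where 1.23% of all genes tested rose. MIR449B was chosen for mention after its value was seen. MIR449B read 6.67 and 6.71 and then 7.01 and 7.20 (0.42 ± 0.088, adjusted p = 0.046) and lost its call without any 1 of the 12 arrays (up to 0.201). Its 5p product shares the seed GGCAGUG with miR-34a, the best known p53-induced microRNA. The MIR34A probe set read 3.53 and 3.70 in untreated and 3.85 and 3.77 in treated RKO cells, a difference of 0.19 ± 0.079 that was not called. Its difference was 0.14 ± 0.079 in HCT116, also not called, and it rose by 1.45 ± 0.079 in SW48.
miR-449b-5p: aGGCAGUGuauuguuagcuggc
miR-34a-5p: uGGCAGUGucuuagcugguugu
miR-3189-3p: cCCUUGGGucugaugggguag

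Stress and immune lists gave 1 or 2 calls each, where 1.23% of all genes tested rose and 0.793% fell. Of 11 integrated stress genes DDIT3, the transcription factor CHOP, rose by 0.56 ± 0.11 together with SESN2. The call of DDIT3 was lost without 3 of the RKO arrays (up to 0.168), and ATF3, ASNS and ATF4 had differences of 0.34, 0.11 and -0.15. LACC1, an enzyme of immune metabolism and the single called member of 12 NF-kB and inflammatory genes (median 0.056), rose from 6.75 and 6.79 to 7.88 and 7.73 (1.03 ± 0.12). TLR3 was the only called member of 23 interferon-stimulated and sensing genes (median 0.098). PML, the organiser of nuclear bodies, rose by 0.48 ± 0.068 (up to 0.0592 without the second untreated or the second Nutlin-3a array). Of 13 sterol synthesis genes STARD4, a sterol carrier, rose by 0.43 ± 0.064 (up to 0.074), and of 24 immediate early and MAPK feedback genes the phosphatase gene DUSP6 rose by 0.34 ± 0.062 (up to 0.133) while MYC fell. AXIN2 was the sole call among 17 intestinal identity genes (median 0.085), and by limma with Benjamini-Hochberg adjustment no call was made among 11 mesenchymal genes, 14 genes silenced in methylator colorectal cancers or 6 housekeeping genes, of which 2, 3 and 2 had an unadjusted p under 0.05. Their largest differences were -0.31 ± 0.11 (SNAI1), 0.24 ± 0.081 (HLTF) and -0.22 ± 0.088 (PPIA). The histone genes were not analysed here.

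**Figure D4:**
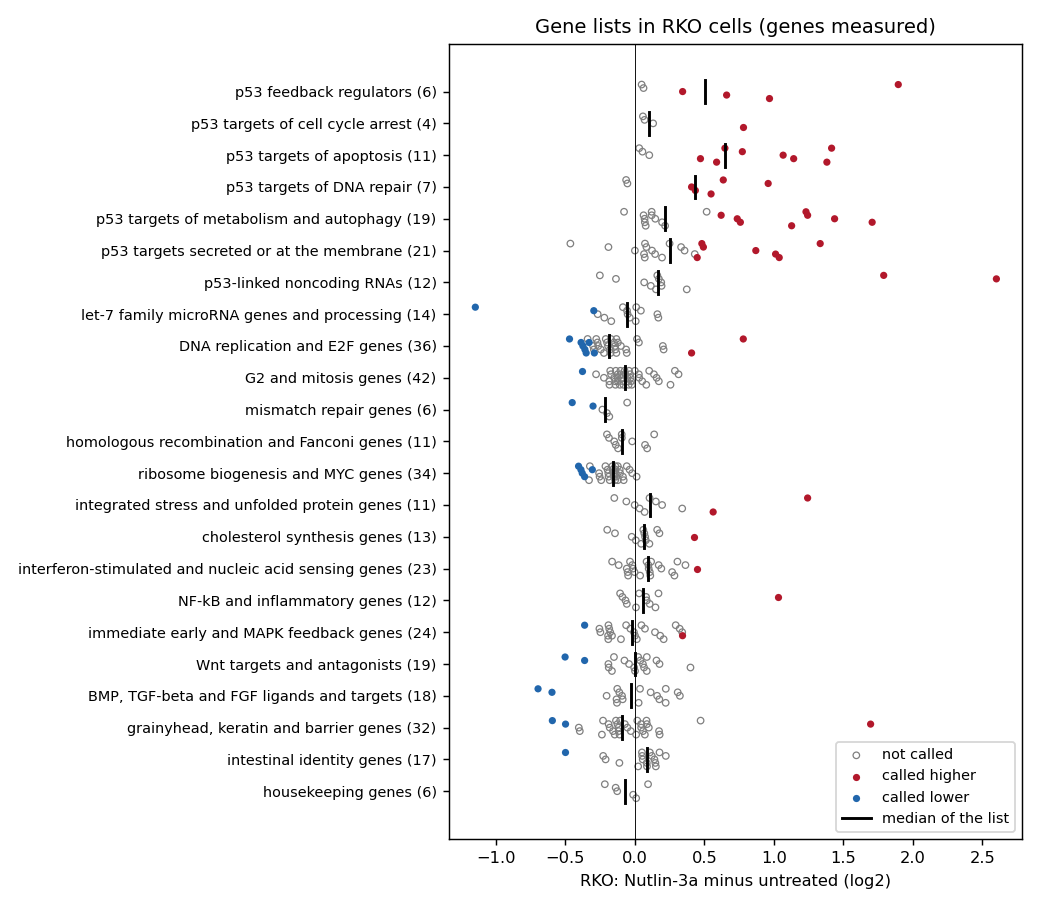
Each point is a measured gene placed by its RKO difference (Nutlin-3a minus untreated, log2, horizontal axis) in the row of its list, with the number of genes measured in brackets; red and blue are called rises and falls, open circles are not called, and black bars are list medians. The p53 target lists have medians from 0.101 to 0.648, while the replication, mismatch repair and ribosome lists have medians of -0.186, -0.217 and -0.156.

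Much of the RKO response was shared with the other lines, each measured against its own untreated arrays. Nutlin-3a changed 721 genes in HCT116 (5.11%) and 441 in SW48 (3.12%). Of the 173 rises in RKO, 117 (67.6%) were also rises in HCT116, where they made up 26.9% of 435, and 83 (48.0%) were also rises in SW48, 42.6% of its 195. The 435 and 195 are out of all 14118 genes tested. The lines shared 1 estimate of spread per gene, so calls in different lines were not independent. Of the 173, 77 were called higher in both other lines and 49 were called in neither. A missing call is not a test of a difference: 157 of the 173 had the same sign in HCT116 and 148 in SW48. The share of all genes with the same sign was not counted. Over all genes tested, the RKO differences correlated at r = 0.367 with those of HCT116 and 0.357 with those of SW48. Of the 112 falls in RKO, 44 were also falls in HCT116 (39.3%, and 15.4% of the 286 in HCT116) and 28 in SW48 (25%, and 11.4% of the 246 in SW48), with 24 called in both and 62 in neither; 96 and 89 had the same sign. Among the shared rises, TP53INP1 had differences of 1.90 in RKO, 2.48 in HCT116 and 1.73 in SW48, EFNB1 of 1.08, 1.09 and 1.07, and TIGAR of 1.23, 1.18 and 1.08. PURPL rose by 1.79, 1.53 and 1.33, and its RKO response did not pass the test against the mean of the others (0.36 ± 0.17, adjusted p = 0.491). Of 36 replication genes 24 fell in HCT116 and 26 in SW48, against the 7 in RKO, and the difference itself passed for 2 of them, ZNF367 and DTL.

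The response itself differed between RKO and the mean of HCT116 and SW48 for 38 genes (0.269%): 18 responded more positively in RKO and 20 more negatively. Of the 18, 12 were rises in RKO, 7 were called in RKO and in neither other line, and 5 were genes that fell in both other lines and were not called in RKO. Of the 20, 8 were falls in RKO, and 7 were genes that rose in both other lines and were not called in RKO. All of these differences were sensitive to the arrays used: without 1 RKO array the count was 1, 1, 0 or 12 (1271, 1451, 1391 and 1432 genes at an unadjusted p under 0.05), and without 1 array of another line 0 to 22. The fit with 12 was the one without the second Nutlin-3a array.

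Some of the 38 rose in RKO and were called in neither other line. KITLG had been low in untreated RKO cells, at 6.98 and 6.78, against 11.76 and 11.83 in HCT116 and 10.64 and 10.64 in SW48. It rose in RKO (0.87 ± 0.081) and had differences of 0.011 and 0.12 in the others, a difference between responses of 0.80 ± 0.099 (adjusted p = 0.0209). DOCK8, whose start region carries the strict p53 match shown above, went from 5.61 and 5.60 to 6.20 and 6.10 in RKO (0.55 ± 0.06) and had -0.034 and -0.014 in the others (0.57 ± 0.073, adjusted p = 0.0209). YPEL3 (0.85 in RKO, 0.08 and 0.22 elsewhere), the peroxisomal carnitine transferase gene CROT (0.65, 0.0019 and 0.22) and ZNF114 (0.65, -0.19 and 0.077) had the same form; the RKO call of ZNF114 was itself lost without 2 of the RKO arrays (adjusted p up to 0.0576). CROT was dim in HCT116, at 3.50 and 3.61 untreated and 3.55 and 3.57 after Nutlin-3a. The highest adjusted p without 1 RKO array was 0.0753 for KITLG and 0.105 for DOCK8.

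Other genes rose in RKO and in HCT116 and were not called in SW48. GRHL3 had 1.70 in RKO, 1.10 in HCT116 and 0.15 in SW48, where its untreated values were already 9.90 and 9.68 against 5.75 and 5.76 in RKO (1.07 ± 0.16, adjusted p = 0.0415; 0.142 at its highest without 1 RKO array). LCE1F (0.72 ± 0.11), LIF (0.58 ± 0.091) and CCNG2 (0.51 ± 0.071) followed the same order.

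Further genes fell in both other lines and were not called, or fell less, in RKO, several of them genes of replication and recombination. ZNF367 fell in all 3 lines, by 0.33 in RKO, 1.03 in HCT116 and 1.08 in SW48 on the log2 scale (0.72 ± 0.074, adjusted p = 0.0126). DTL, the substrate adaptor that marks CDT1 for destruction in S phase, had -0.15 in RKO, -0.64 and -0.91 (0.63 ± 0.071). BARD1, the partner of BRCA1, had -0.095, -0.58 and -0.64 (0.51 ± 0.073), and the helicase gene BRIP1 0.14, -0.30 and -0.52 (0.55 ± 0.076). ZNF763, a zinc finger gene, was at 0.37 in RKO and -0.57 and -0.57 elsewhere (0.94 ± 0.11).

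The remaining genes, GDF15 and ACTG1P25 apart, rose in other lines and were not called in RKO, or fell in RKO and in neither other line. By limma ACTG1P25 rose in RKO (0.38 ± 0.06, adjusted p = 0.0136) and fell in SW48 (-0.48 ± 0.06, adjusted p = 0.00221). Its difference in HCT116 was -0.11 ± 0.06 and was not called. SULF2, a heparan sulfate sulfatase and p53 target, had the largest difference of all, with -0.46 ± 0.19 in RKO (not called) against 1.81 ± 0.19 and 1.79 ± 0.19 (-2.26 ± 0.24, adjusted p = 0.0126). Its RKO values were 5.49 and 4.76 untreated and 4.81 and 4.50 treated, a wide spread with overlapping groups, below the untreated 7.50 and 7.70 of HCT116 and 8.02 and 8.13 of SW48. A second SULF2 probe set had an RKO difference of 0.084 ± 0.1. The difference between responses stayed called without 3 of the RKO arrays and reached 0.0578 without the first Nutlin-3a array. PLK2 was likewise low in RKO, at 4.22 and 4.03 and 4.12 and 4.26, against 7.91 and 7.87 in untreated HCT116 and 8.56 and 8.75 in untreated SW48, and its RKO difference was 0.062 against 1.27 and 0.58 (-0.86 ± 0.11). The plakin gene EPPK1 (-0.83 ± 0.13), the long noncoding RNA LINC00294 (-0.76 ± 0.08) and TCP11L1 (-0.63 ± 0.081) rose in both other lines, and SPATA18, a gene of mitochondrial quality control (-0.95 ± 0.13), and MIR34A (-0.61 ± 0.096) in SW48. GDF15 rose in RKO by less than the mean of the others (-0.74 ± 0.12), by 1.33 against 1.54 in HCT116 and 2.59 in SW48. By limma its RKO response did not pass against HCT116 alone (-0.21 ± 0.135, adjusted p = 0.571). It passed against SW48 alone (-1.26 ± 0.135, adjusted p = 0.00649). Of the 8 RKO falls with a called difference, none was called lower in another line. The largest differences were those of MIRLET7F1 (-1.29 ± 0.19), VSTM4 (-0.78 ± 0.086), FAM222A-AS1 (-0.72 ± 0.11), KRTAP2-3 (-0.71 ± 0.11) and BMP4 (-0.70 ± 0.11). MIRLET7F1 read 3.04 and 3.23 in untreated HCT116 and 3.60 and 3.28 in untreated SW48. These values lie below the 25th percentile of all values (3.846) and near the treated RKO values of 3.56 and 3.30. Whether a fall could show at that level was not tested. VSTM4 rose in HCT116 by 0.41, and its second probe set had an RKO difference of 0.114 ± 0.094. BMP4 had untreated values of 11.74 and 11.73 in HCT116 and 12.89 and 12.94 in SW48, against 5.58 and 5.66 in RKO. By limma the RKO response of BMP4 did not pass against HCT116 alone (adjusted p = 0.0841) or SW48 alone (0.0521). Those of FAM222A-AS1 and KRTAP2-3 passed against SW48 alone (0.0415 and 0.0413) but not against HCT116 alone (0.0771 and 0.101).

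**Figure D5:**
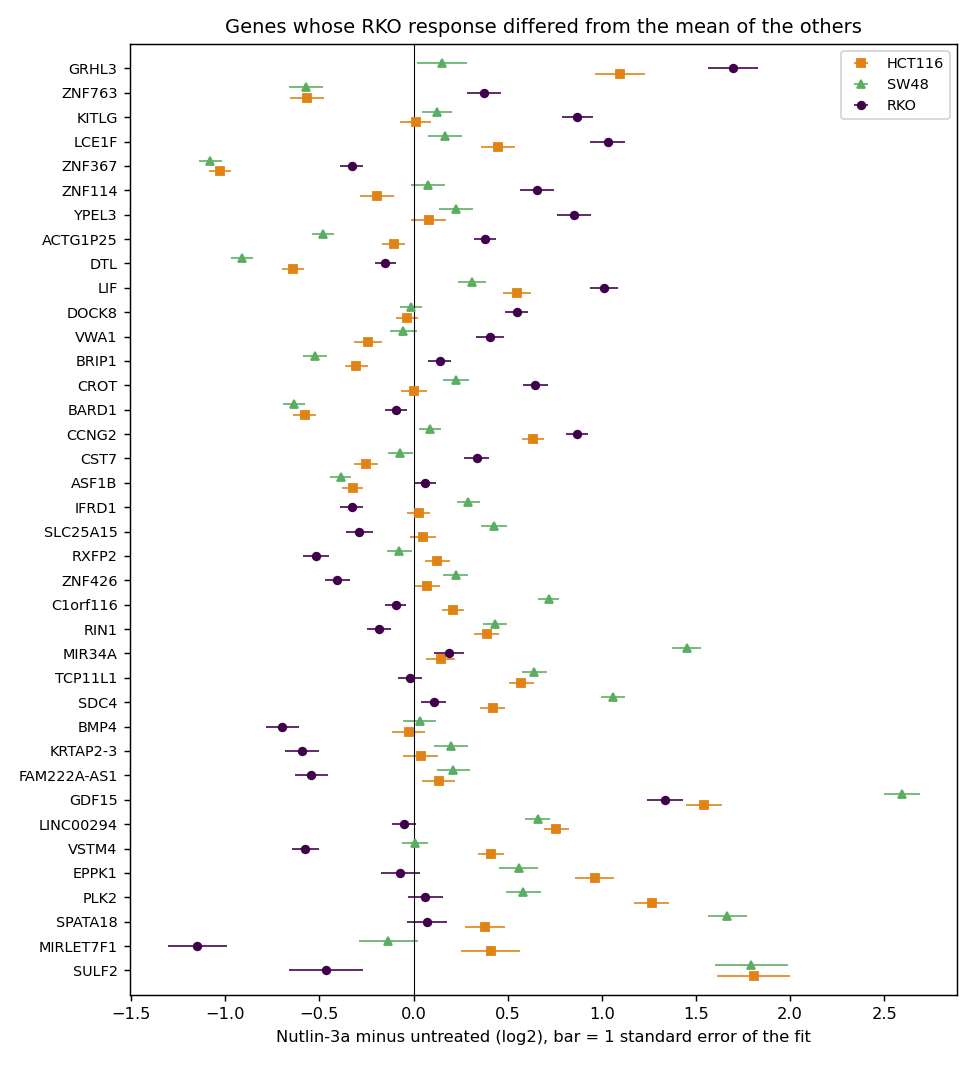
Nutlin-3a minus untreated (log2, horizontal axis) in RKO (purple circles), HCT116 (orange squares) and SW48 (green triangles) for the 38 genes whose RKO response differed from the mean of the others, with bars of 1 standard error of the fit (n = 2 arrays per group). The order runs from SULF2 at the bottom (-2.26) to GRHL3 at the top (1.07), the difference between responses.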

How the data were processed

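The 12 samples of total RNA were hybridised to the Human Gene 2.0 ST array of Affymetrix. The values are the authors' deposited table, 1 value per probe set and array, taken as log2 because they run from 2.22 to 13.45. The submitters' processing notes name GCOS. For background correction, summarization, normalization and genome build, nothing is given in the sources used here. Column medians lay between 4.98 and 5.05, and 0 columns of samples were left unused.

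Of 37270 probe sets, 14530 (39.0%) carried 1 gene symbol in the platform annotation and 22740 none. A gene with several probe sets (395 of 14118) was represented by the one with the highest mean over the 12 arrays. limma 3.58.1 in R 4.3.3 fitted the 6 group means together, with eBayes (6 residual and 3.71 prior degrees of freedom) and Benjamini-Hochberg adjustment over all 14118 genes. The RKO response was also tested against the mean of the HCT116 and SW48 responses, and against each of them alone. The procedure was tested on simulated data. The number of arrays limits the precision.

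The members and gene lists were chosen with earlier results of these data known. Genes were named by rule: the 12 largest called rises and falls in RKO with groups apart, the 6 largest called differences between responses each way, up to 4 called genes per list by size of change (1 gene where none was called), and the genes taken from the study. Names outside this rule were chosen after their values were seen. Promoter and microRNA sequences are from RefSeq (GRCh38.p14). Alternatives covered normalization, the variance prior, dim genes, the probe set per gene, unnamed probe sets, the threshold, a replicate block, the RKO arrays alone and each array left out.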

Additional observations from a re-analysis of the deposited data

Results flagged for a closer look

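The responses of 12 named genes differed between RKO and the mean of HCT116 and SW48 by the limma test of that difference itself. They were lower in RKO for SULF2 (-2.26), MIRLET7F1 (-1.29), SPATA18 (-0.95), PLK2 (-0.86), EPPK1 (-0.83) and VSTM4 (-0.78), on the log2 scale. They were higher in RKO for GRHL3 (1.07), ZNF763 (0.94), KITLG (0.80), LCE1F (0.72), ZNF367 (0.72) and ZNF114 (0.71). Each of these calls was lost without at least 1 RKO array. When RKO was tested by limma against each line alone, SULF2, VSTM4, KITLG, ZNF763 and ZNF367 passed against both. SPATA18, GRHL3 and LCE1F passed against SW48 only (adjusted p = 0.446, 0.258 and 0.125 against HCT116). MIRLET7F1, PLK2, EPPK1 and ZNF114 passed against HCT116 only (adjusted p = 0.139, 0.195, 0.165 and 0.148 against SW48). Outside the genes reported above, 130 probe sets with no gene symbol passed in the RKO comparison when all probe sets were tested together, and the largest difference among them was 1.73 ± 0.14. Their genes were not analysed here.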

How the results depend on the processing

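Results are given as all calls in RKO (rises, falls), then as genes whose RKO response differed from the others (more positive, more negative), against 285 (173, 112) and 38 (18, 20). A trend with a robust prior gave 760 (311, 449) and 136 (65, 71). Testing all probe sets gave 136 (103, 33) named genes and 8 (5, 3). An adjusted p under 0.01 gave 84 (70, 14) and 0 (0, 0) by limma, where 1516 differences had an unadjusted p under 0.05. The 4 RKO arrays fitted alone gave 31 (31, 0) calls, and the difference could not be fitted there. Leaving out 1 array gave 97 to 226 (80 to 146, 16 to 80) and 0 to 22 (0 to 9, 0 to 13). The differences numbered 0 without the first untreated HCT116 array (1318 at an unadjusted p under 0.05) or the first Nutlin-3a RKO array (1391). The causes were not tested. Quantile normalization, median centring, leaving out dim genes and averaging probe sets kept the RKO count between 276 and 304 and the difference between 36 and 39. No named gene's value that was called in the main or the alternative fit changed sign. Values called in neither were not checked for sign.

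With the replicate block the counts were 87 (69, 18) and 1 (0, 1). Same-numbered samples deviated with correlations over genes of 0.055 (HCT116), -0.039 (SW48) and -0.055 (RKO). The labels do not say what the number marks, and a shared culture or batch was not tested. Of the named genes' RKO values under the alternatives, 2106 stayed on the same side of the threshold, 451 lost their call and 3 gained one; for the difference, 232 stayed and 387 lost it.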
